A study of Rattus norvegicus with 8 samples.

Results

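Dexamethasone is a synthetic glucocorticoid, and 61 genes with a RefSeq mRNA probe were clearly lower in rat thymocytes that were cultured with it (Dex) than in thymocytes cultured without it (Control). They are 61 of 8905 gene names that have such a probe on the array. The genes were selected on the measured values themselves. A probe had to have a Dex mean at least 1.0 log2 unit below the Control mean, each of its 4 Dex values had to lie below each of its 4 Control values, and the scanner software had to flag its spots as well above background on all 4 Control arrays. Of the probes that met these conditions the brightest one stood for a gene. No gene was cut off by the planned maximum of 150 genes. The size and the direction of each difference given here are therefore a description and carry no test.

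The cells were primary thymocytes of adrenalectomized male Sprague-Dawley rats, and the thymi of 3 rats were pooled for a preparation. Adrenalectomy removes the animal's main source of natural glucocorticoid, and both groups share it. The Control cells were untreated and the Dex cells received 100 nM dexamethasone, each for 6 hours in vitro, with 4 arrays (replicates 1 to 4) per group. The methods state 3 biological replicates per group while 4 arrays per group are labelled as replicates, and nothing ties an array to a preparation, so that the spread between arrays may be technical in part. Each RNA was labelled with Cy3 and hybridized to a 1-color Agilent Whole Rat Genome array, and the values used here are log2 intensities. Without sorting, a lower value can come from fewer cells of a type or from less RNA per cell, and these cannot be told apart. Age was not given in the labels.

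Glucocorticoids enter the cell and bind the glucocorticoid receptor, a transcription factor that raises some genes by binding DNA and lowers others, in part by restraining the factors NF-kappaB and AP-1. NF-kappaB and AP-1 drive genes of inflammation and of cell activation. Immature thymocytes, most of which carry both CD4 and CD8, are known to die by apoptosis under glucocorticoids, and the balance of pro-survival and pro-death Bcl-2 family proteins sets the threshold for that death.

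The labelled cell type was checked against marker genes. All 10 of the double positive thymocyte markers found on the array, among them Cd4, Cd8a, Rag1 and Ptcra, were well above background on all 8 arrays. Their summed level lay at 17.06 to 17.64 on the log2 scale in Control and at 17.23 to 17.29 in Dex. Of the 10 markers 7 were lower in Dex, with a median of -0.21. None was called different by limma, 3 were lower at an unadjusted p under 0.05, and 2 were lower by the signal to noise statistic of the study's methods. Over all 41012 probes 4.89% were lower at that unadjusted p, 10.5% passed it in either direction and 3.18% were lower by the signal to noise statistic. Of 12 macrophage or dendritic cell markers 4 were lower in Dex and none was called by limma or was lower at an unadjusted p under 0.05, with summed levels of 12.81 to 13.36 in Control and 12.79 to 13.77 in Dex. Of 12 stromal or epithelial markers 1 was lower, Dcn was not well above background on any array, and the summed levels were 11.95 to 12.41 and 12.32 to 12.76. Of 5 B cell markers 2 were lower, with summed levels of 7.46 to 7.95 and 7.21 to 8.15, and of 5 erythroid markers none was lower, with 8.68 to 10.56 and 8.85 to 11.35. The marker genes of other cell types were thus not lower as lists in Dex, but their part in the results was not tested. One endothelial marker of the stromal list, Pecam1, was called higher, by 1.36 log2 units (limma adjusted p = 0.021). The arrays lay on 3 slides. One slide held Control 1 and Dex 3, another held Control 2 to 4, and the third held Dex 1, 2 and 4. The 75th percentile of the processed intensity ranged from 317 to 428 in Control and from 264 to 425 in Dex before normalization, and no spot was saturated. The probes well above background numbered 28665, 34472, 33148 and 33263 on Control 1 to 4. On Dex 1 to 4 they numbered 26471, 24908, 33284 and 33402.

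The rule left few of the genes with a large mean difference. Of 204 RefSeq probes, for 193 gene names, whose Dex mean was at least 1.0 below the Control mean, 132 had overlapping groups and 5 more were not well above background on all Control arrays. The remaining 67 probes stood for the 61 genes. The difference was 2 or more log2 units in 9 genes, from 1.5 to 2 in 13 and from 1 to 1.5 in 39, with a median of -1.29. The gap between the lowest Control and the highest Dex value ran from 0.04 to 1.58 with a median of 0.61. It was at least 1 in 9 genes and under 0.2 in another 9. Control means spanned 3.63 to 16.08, with a median of 9.25 against 6.38 for all RefSeq genes. The rule required the background flag on all Control arrays, so a higher Control level than in all genes is in part built in. The same rule turned round, for genes higher in Dex, was met by 126 genes. There the flag was required on the Dex arrays, so the median Control mean of these genes, 7.47, is not a like comparison. Across all 8905 RefSeq gene names 48.3% were lower in Dex and the median difference was 0.01. In the fit across all probes limma called 87 of 41012 probes lower, which is 0.212%, and of the 61 genes 23 were called lower. With the brightest probe standing for each of 35581 gene names, 0.225% were called lower and 0.52% were called higher. All Dex values lay below all Control values in 4.45% of gene names. With the replicate number as a block 0.0146% of probes were called lower, and 1 of the 61 genes, Fn1. Since the rule used the same difference, these counts say nothing further about the genes.

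**Figure D1:**
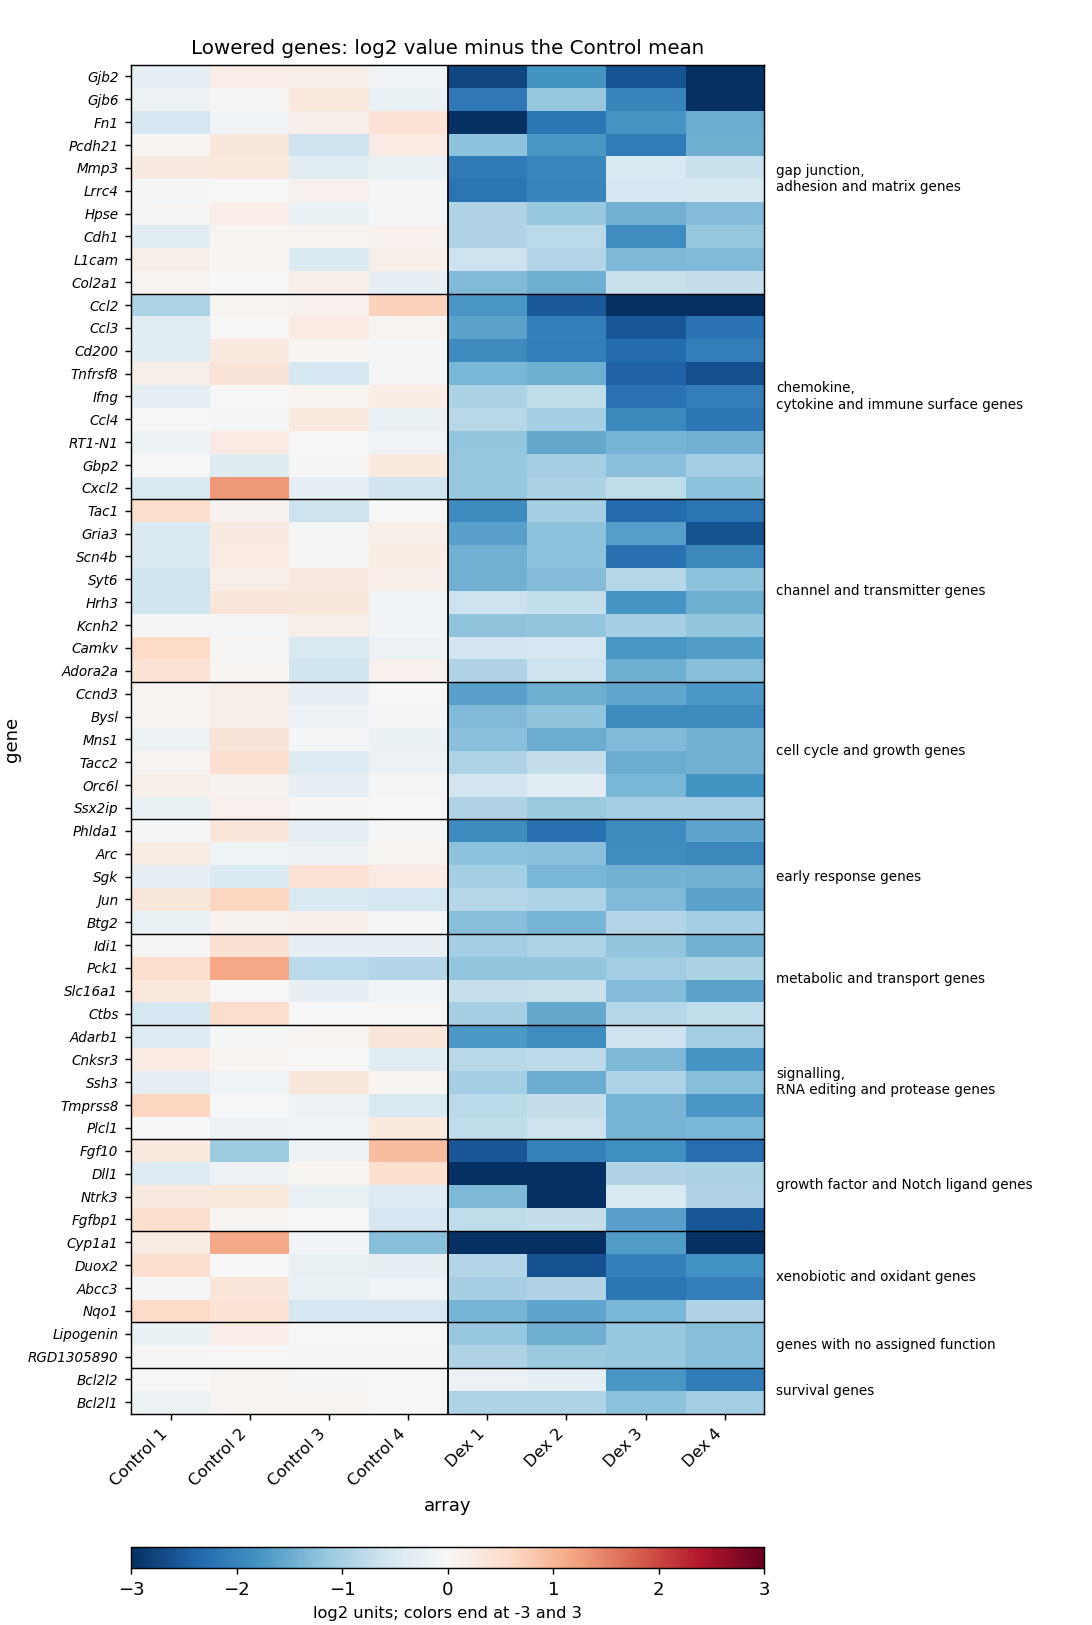
Each row is a lowered gene (2 of the 61 are not shown) and each column is an array, and the color gives the log2 value minus the gene's Control mean, with genes grouped by function. All Dex columns are lower than the Control columns, and the genes differ in whether Dex 1 and 2 or Dex 3 and 4 are the lowest.

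The functions to which the genes belong were assigned by hand from textbook knowledge once the genes were known. The fullest groups were gap junction, adhesion and matrix genes (11 genes), chemokine, cytokine and immune surface genes (9 genes) and channel and transmitter genes (8 genes). Cell cycle and growth genes numbered 6. Early response genes, metabolic and transport genes, and signalling, RNA editing and protease genes had 5 each. Growth factor and Notch ligand genes and xenobiotic and oxidant genes had 4 each, and 2 genes belonged to survival. The last 2, Lipogenin and RGD1305890 (now Oaf), were given no function. The growth factor and Notch ligand genes had the lowest median difference (-1.94) and the survival genes the highest (-1.06). That order turned round (-0.36 and -0.75) under normexp, an alternative background correction that adds an offset.

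Secreted signals and surface molecules of immunity included 4 chemokines. Ccl2, the chemokine that draws monocytes, had log2 values of 5.21, 6.23, 6.27 and 6.82 in Control 1 to 4 and of 4.38, 3.60, 2.71 and 2.89 in Dex 1 to 4, a difference of -2.74. It was well above background on 2 of the 4 Dex arrays, and the difference was -0.77 under normexp. Ccl3 and Ccl4, chemokines of the macrophage inflammatory protein family, were brighter. Ccl3 was at 10.96, 11.30, 11.53 and 11.36 in Control and at 9.69, 9.25, 8.71 and 9.06 in Dex, a difference of -2.11. Ccl4 was at 9.63, 9.61, 9.93 and 9.42 in Control and at 8.81, 8.64, 7.72 and 7.48 in Dex, a difference of -1.49. In both, Dex 3 and 4 were the lower Dex arrays. Cxcl2, a neutrophil chemokine, only just met the rule, with 5.84, 7.59, 6.05 and 5.68 in Control and 5.15, 5.35, 5.52 and 5.07 in Dex. Control 2 was its highest value, and the difference was -1.02. Ifng, the interferon that T cells secrete, was dim, at 5.12 to 5.63 in Control and 3.18 to 4.65 in Dex (2.84-fold).

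Cd200, a surface glycoprotein whose receptor restrains myeloid cells, had the widest gap between the groups of all 61 genes. Its values were 13.41, 14.03, 13.78 and 13.68 in Control and 11.83, 11.64, 11.40 and 11.64 in Dex, so that Control was 4.27 times as high as Dex on the linear scale. The lowest Control array was 1.58 above the highest Dex array. Tnfrsf8, which encodes the activation marker CD30, was at 7.10, 7.31, 6.39 and 6.90 in Control and at 5.56, 5.46, 4.51 and 4.28 in Dex (difference -1.97). RT1-N1, a class Ib major histocompatibility gene, was at 14.57 ± 0.18 in Control and 13.19 ± 0.16 in Dex (SD, n = 4). Probes of this multigene family can bind transcripts of its near-identical members, so the value is uncertain as to the gene. Gbp2, an interferon-inducible GTPase, was at 11.48 ± 0.27 and 10.37 ± 0.11.

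The promoters of Tnfrsf8 and Cxcl2 are shown because they are the immune genes of the group in which an NF-kappaB motif was found. Both are the 250 bases before the start of transcription in RefSeq (build GRCr8), written 5′ to 3′ on the gene's strand, with NF-kappaB and AP-1 motifs in capitals. The Tnfrsf8 window is chr5:162451621-162451870 on the minus strand and the Cxcl2 window is chr14:17467256-17467505 on the minus strand.
Tnfrsf8: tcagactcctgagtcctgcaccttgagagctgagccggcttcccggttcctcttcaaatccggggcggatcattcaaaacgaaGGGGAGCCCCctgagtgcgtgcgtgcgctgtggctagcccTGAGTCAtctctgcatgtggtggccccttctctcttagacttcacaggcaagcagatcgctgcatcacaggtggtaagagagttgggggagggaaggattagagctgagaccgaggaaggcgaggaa
Cxcl2: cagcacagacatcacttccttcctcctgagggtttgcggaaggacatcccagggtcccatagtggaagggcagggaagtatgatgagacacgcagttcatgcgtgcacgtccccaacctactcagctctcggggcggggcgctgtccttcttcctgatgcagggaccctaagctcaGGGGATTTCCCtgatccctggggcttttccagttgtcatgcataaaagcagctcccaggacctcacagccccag
Counted from the start, with -1 as the base just before it, the NF-kappaB motif of Tnfrsf8 begins at -167 and the AP-1 motif at -127. The capitals in Cxcl2 cover a pair of overlapping NF-kappaB matches that begin at -74 and -73.

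**Figure D2:**
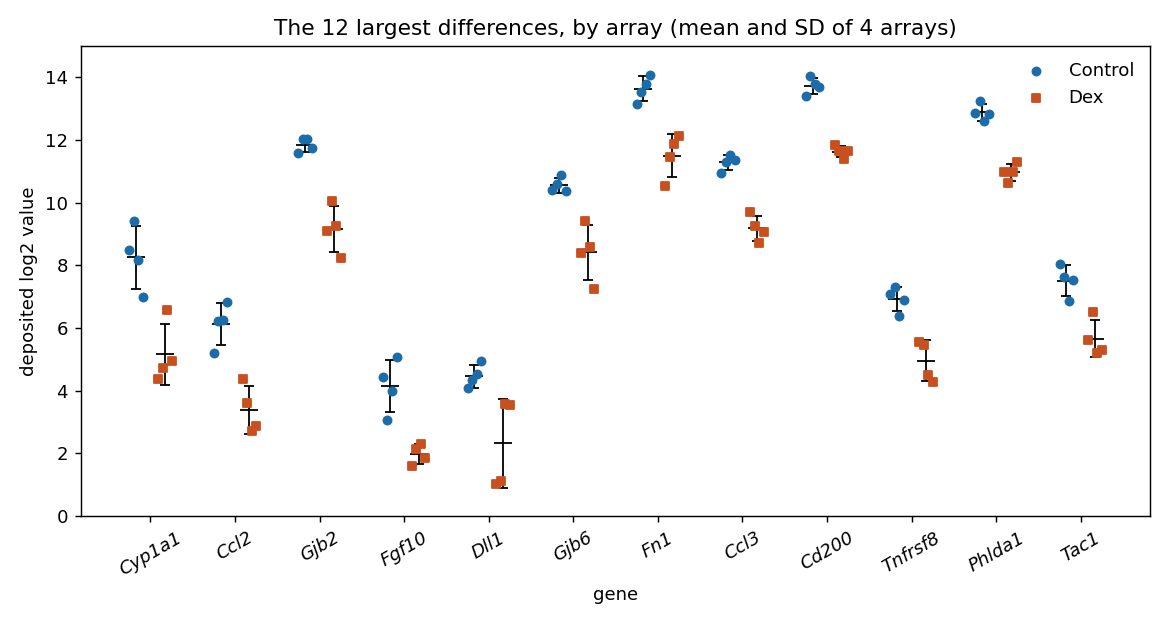
Log2 values on each of the 4 Control arrays (circles) and 4 Dex arrays (squares) for the 12 genes with the largest differences, with the mean and SD in black. Cd200, Ccl3, Gjb2 and Phlda1 have gaps above 1 between the groups, while the Cyp1a1 values of Control 4 and Dex 3 lie close to each other.

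Among the genes of cell contact, both gap junction genes stood out by size. Gjb2 and Gjb6 encode connexin 26 and connexin 30, which form channels between touching cells. Gjb2 was at 11.57, 12.04, 12.02 and 11.74 in Control and at 9.11, 10.05, 9.26 and 8.24 in Dex, a difference of -2.68. Gjb6 was at 10.39, 10.59, 10.87 and 10.36 in Control and at 8.41, 9.41, 8.58 and 7.25 in Dex, a difference of -2.14. The Dex arrays took the same order in both, with Dex 2 the highest and Dex 4 the lowest. Fn1, which encodes the matrix protein fibronectin, was at 13.13, 13.54, 13.79 and 14.06 in Control and at 10.54, 11.47, 11.86 and 12.14 in Dex (difference -2.13). Pcdh21 (now Cdhr1), a cadherin-related gene known from photoreceptors, was at 13.45 ± 0.43 and 11.81 ± 0.36. The adhesion genes Cdh1 (E-cadherin) and L1cam differed by -1.18 and -1.05. The matrix enzyme gene Hpse, whose product cuts heparan sulfate, differed by -1.19, and the collagen gene Col2a1 by -1.04.

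Mmp3, which encodes the matrix protease stromelysin, and Lrrc4, a synaptic adhesion gene, were dim, and their Dex arrays split. Mmp3 was at 4.01, 4.05, 3.41 and 3.52 in Control and at 1.62, 1.80, 3.29 and 3.09 in Dex. Lrrc4 was at 5.40, 5.44, 5.59 and 5.43 in Control and at 3.28, 3.48, 4.95 and 4.97 in Dex. In both, Dex 1 and 2 were far below Dex 3 and 4, and only 2 Dex arrays were well above background. Over all probes, too, Dex 1 and 2 had the fewest well above background of any array (26471 and 24908). The Mmp3 promoter is shown for its AP-1 motif (capitals), which begins at -71 from the start of transcription. It is chr8:12925031-12925280 on the plus strand in GRCr8, from RefSeq.
Mmp3: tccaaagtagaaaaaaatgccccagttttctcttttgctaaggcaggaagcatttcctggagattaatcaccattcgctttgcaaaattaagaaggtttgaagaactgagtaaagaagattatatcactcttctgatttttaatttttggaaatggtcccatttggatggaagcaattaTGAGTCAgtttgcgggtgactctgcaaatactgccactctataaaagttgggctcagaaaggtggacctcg

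The growth factor and Notch ligand genes were few and mostly dim. Fgf10, a fibroblast growth factor, was at 4.45, 3.08, 3.99 and 5.07 in Control and at 1.59, 2.13, 2.31 and 1.85 in Dex. It was not well above background on any Dex array, so the difference is a bound, and Control was at least 1.66-fold higher. The bound sets the Control mean against the higher of the Dex value and the lowest signal well above background on each Dex array. Dll1, a ligand of Notch receptors, was at 4.08, 4.33, 4.53 and 4.94 in Control and at 1.04, 1.13, 3.57 and 3.53 in Dex. Ntrk3, the receptor of neurotrophin 3, was at 5.73, 5.77, 5.24 and 5.07 in Control and at 4.11, 1.25, 5.00 and 4.55 in Dex. Both were well above background on 2 of the 4 Dex arrays, and the lowest values were Dex 1 and 2 in Dll1 and Dex 2 in Ntrk3. Over all probes Dex 1 and 2 had the fewest well above background of any array. The differences of Dll1 and Ntrk3 were -2.15 and -1.73 in the deposited values and -0.27 and -0.37 under normexp. Fgfbp1, which releases fibroblast growth factors from the matrix, was brighter, at 8.75 ± 0.40 in Control and 7.34 ± 0.87 in Dex.

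Early response genes, which cells switch on soon after a stimulus, were represented by 5 genes at high levels. Phlda1 was at 12.86, 13.25, 12.60 and 12.83 in Control and at 10.99, 10.64, 10.98 and 11.30 in Dex, a difference of -1.91 with a gap of 1.31. Arc, an activity-regulated cytoskeletal gene best known from neurons, differed by -1.57 (10.43 ± 0.19 against 8.87 ± 0.38). Sgk (now Sgk1), a kinase gene named for its induction by serum and glucocorticoids in other cells, was at 11.69, 11.52, 12.37 and 12.19 in Control and at 10.91, 10.57, 10.53 and 10.50 in Dex. No Dex array reached the Control range, and the difference was -1.32. Jun, a subunit of AP-1, was at 9.77, 10.08, 8.96 and 8.90 in Control and at 8.58, 8.50, 8.10 and 7.82 in Dex. Btg2, an antiproliferative gene, was the brightest of the 61 genes. Its values were 15.88, 16.19, 16.23 and 16.01 in Control and 14.80, 14.69, 15.19 and 15.06 in Dex, a difference of -1.14. Its promoter is shown because it alone among the genes searched holds a CRE, the site of cyclic AMP responsive factors (capitals, beginning at -201 from the start of transcription). It is chr13:48087691-48087940 on the minus strand in GRCr8, from RefSeq.
Btg2: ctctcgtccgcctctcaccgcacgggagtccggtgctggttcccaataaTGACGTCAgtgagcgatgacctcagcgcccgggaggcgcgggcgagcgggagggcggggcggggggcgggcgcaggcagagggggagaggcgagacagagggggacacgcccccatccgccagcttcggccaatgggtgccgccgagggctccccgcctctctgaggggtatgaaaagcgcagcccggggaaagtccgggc

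Of 20 early and activation factors found on the array, 11 were lower in Dex, against 17793 of all 35581 gene names, with a median of -0.12. Jun was the sole one among the 61 genes, and limma called none of the 20 in either direction, while 9 passed an unadjusted p of 0.05 in either direction, 4 of them lower, against 10.5% and 4.89% of all probes. By the signal to noise statistic 3 were lower, against 3.18%. Their summed level was 15.48 to 15.82 in Control and 14.91 to 15.27 in Dex. Fos, the partner of Jun in AP-1, was at 5.69 in Control and 6.94 in Dex (limma adjusted p = 0.095), and Egr1 was at 8.87 and 8.08 (limma adjusted p = 0.45).

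Both survival genes, Bcl2l1 and Bcl2l2, encode relatives of Bcl-2 that hold back apoptosis (Bcl-xL and Bcl-w). Bcl2l1 was at 12.69, 12.92, 12.92 and 12.84 in Control and at 11.91, 11.91, 11.61 and 11.79 in Dex. The groups were tight and 0.78 apart at their nearest values, and the difference was -1.04. Bcl2l2 was at 6.74, 6.84, 6.70 and 6.77 in Control and at 6.59, 6.48, 5.03 and 4.68 in Dex. Dex 1 and 2 lay just below the Control arrays, and the low values were Dex 3 and 4 (difference -1.07). A second Bcl2l2 probe, at 6.55 in Control and 6.82 in Dex, was the brighter of the pair over all arrays and was higher in Dex by 0.27. With the brightest RefSeq probe taken first, Bcl2l2 would thus not be among the lowered genes. Of 3 other Bcl2l1 probes 1 was higher by 0.54. Of 31 cell death and survival genes on the array, 17 were lower, with a median of -0.22. At an unadjusted p under 0.05 limma had 10 lower and 15 in either direction, against 4.89% and 10.5% of all probes, and 7 were lower by the signal to noise statistic, against 3.18%. Among those outside the 61 genes limma called Fas, a death receptor, lower (12.59 in Control and 11.77 in Dex, adjusted p = 0.042). The call was lost with the replicate block (limma adjusted p = 0.18). It called Bcl2l11, which encodes the pro-death protein Bim, higher by 1.77 log2 units (adjusted p = 0.014, and 0.12 with the block). Bcl2 and Mcl1, further pro-survival genes, differed by 0.41 and 0.19 and were not called (adjusted p = 0.71 and 0.72).

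Of the cell cycle and growth genes, Ccnd3 had the widest gap between the groups, 1.18. It encodes cyclin D3, which drives the expansion of immature thymocytes. Its values were 12.70, 12.80, 12.35 and 12.65 in Control and 10.99, 11.17, 11.07 and 10.90 in Dex, a difference of -1.59, or 3.01-fold. Bysl, needed to build the small ribosomal subunit, was at 10.47, 10.57, 10.21 and 10.33 in Control and at 9.06, 9.20, 8.50 and 8.48 in Dex, a difference of -1.58. Mns1, first known from meiosis, was at 13.23 ± 0.26 and 11.86 ± 0.10. Orc6l (now Orc6), a subunit of the complex that marks replication origins, was at 8.18 ± 0.19 and 7.16 ± 0.68. Tacc2, a centrosomal gene, differed by -1.15, and Ssx2ip, which acts at centrosomes and cell junctions, by -1.01.

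The lists related to these genes had medians of either sign, and differences between the lists were not tested. Of 15 D cyclins and CDK inhibitors 9 were lower. Ccnd3 was the sole one called lower by limma, but it was selected on the same difference, so its call adds nothing. The call was lost with the replicate block (limma adjusted p = 0.064). Limma called 0.225% of all gene names lower and 0.52% higher. At an unadjusted p under 0.05 the list had 6 lower and 7 in either direction, against 4.89% and 10.5% of all probes, and 6 were lower by the signal to noise statistic, against 3.18%. Ccnd1 and Ccnd2, the other D cyclins, differed by -0.32 and 0.50 (limma adjusted p = 0.79 and 0.52), and Cdk6, a partner kinase of D cyclins, was called higher by 1.54 (adjusted p = 0.026). Of 29 ribosome biogenesis genes 2 were lower, and the median was 0.21. None of those was lower at an unadjusted p under 0.05 or by the signal to noise statistic, and 4 passed that p in either direction. Of 36 DNA replication genes 32 were lower (median -0.24) and of 38 mitosis genes 35 were lower (median -0.36), and limma called none of either list. At an unadjusted p under 0.05 limma had 6 and 12 of them lower, against 4.89% of all probes, and the signal to noise statistic 4 and 12, against 3.18%. Of 13 V(D)J recombination and pre-T cell receptor genes 12 were lower (median -0.43) and none was called by limma, with 4 lower at an unadjusted p under 0.05 and 3 by the signal to noise statistic, beside the same shares of all probes.

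The largest difference in the deposited values was in a gene of foreign compound metabolism, but under normexp other genes, among them Gjb2, Fn1 and Cd200, differed by more. Cyp1a1, a cytochrome P450 and the best known target of the aryl hydrocarbon receptor, was at 8.48, 9.41, 8.17 and 6.99 in Control and at 4.38, 4.73, 6.58 and 4.95 in Dex. It was well above background on 3 of the 4 Dex arrays. The difference was -3.10 in the deposited values, -1.67 under normexp background correction and -1.90 between Dex 3 and Control 1 on their shared slide. The spread was wide in both groups (SD 1.00 and 0.98), and Control 4 and Dex 3 were 0.41 apart. Nqo1, a quinone reductase and another known target of that receptor, was at 6.90, 6.74, 5.82 and 5.82 in Control and at 4.92, 4.74, 4.95 and 5.42 in Dex (difference -1.32). Abcc3, an export pump for conjugated compounds, differed by -1.53. Duox2, an oxidase that makes hydrogen peroxide, was at 4.12, 3.64, 3.40 and 3.34 in Control and was not well above background on any Dex array, where it read 2.74, 1.01, 1.56 and 1.81. Control was at least 1.16-fold higher.

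Genes known from excitable cells made up the channel and transmitter group. Tac1, the precursor of substance P, was at 8.04, 7.62, 6.86 and 7.53 in Control and at 5.62, 6.52, 5.20 and 5.32 in Dex (difference -1.85, and -0.98 under normexp). Gria3, a glutamate receptor subunit, and Scn4b, a sodium channel subunit, differed by -1.78 and -1.71. Kcnh2, the potassium channel known as hERG, had close replicates, at 10.43 ± 0.12 and 9.29 ± 0.10. Adora2a, the adenosine receptor that dampens T cells, was at 10.01, 9.68, 9.01 and 9.73 in Control and at 8.71, 8.95, 8.14 and 8.34 in Dex. Its groups were 0.06 apart. Hrh3, a histamine receptor, had the smallest gap of the 61 genes, 0.04. Syt6 and Camkv, genes of vesicle fusion and of calmodulin binding, differed by -1.21 and -1.13.

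Of the metabolic and transport genes, Idi1, an enzyme of cholesterol synthesis, was at 11.56 ± 0.33 and 10.43 ± 0.22. Of 23 lipid and cholesterol genes 15 were lower (median -0.23), with 7 lower and 9 in either direction at an unadjusted p under 0.05, against 4.89% and 10.5% of all probes, and 4 lower by the signal to noise statistic, against 3.18%. Limma called 2 of the list, both higher (0.52% of all gene names were called higher), namely Srebf1, a regulator of lipid synthesis, by 3.34 log2 units (adjusted p = 0.000134) and Fasn, a fatty acid synthase, by 2.02 (adjusted p = 0.00857). Slc16a1, a lactate carrier, differed by -1.06, and of 23 glycolysis and glucose uptake genes 7 were lower, 2 of them at an unadjusted p under 0.05 and 2 by the signal to noise statistic. In either direction 6 passed that p. Pck1, a gluconeogenic enzyme known to be raised by glucocorticoids in liver, was at 6.12, 6.77, 4.79 and 4.72 in Control and at 4.42, 4.43, 4.56 and 4.65 in Dex. Control 3 and 4 lay close to the Dex arrays, 0.07 apart at the nearest values. Ctbs, a lysosomal glycosidase, differed by -1.03.

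The remaining group joined signalling and other enzymes. Adarb1, an RNA editing enzyme, was at 8.89, 9.22, 9.36 and 9.65 in Control and at 7.55, 7.42, 8.65 and 8.26 in Dex, with Dex 3 only 0.24 below Control 1. Cnksr3, a kinase scaffold, and Ssh3, a phosphatase of the slingshot family, differed by -1.19 and -1.18. Tmprss8 (now Prss30), a serine protease, differed by -1.16, and Plcl1, an inactive relative of phospholipase C, by -1.04. Of the genes without an assigned function, RGD1305890 had the smallest spread in Control (12.52 ± 0.03 against 11.42 ± 0.15 in Dex) and Lipogenin was at 6.41 ± 0.16 and 5.16 ± 0.15.

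Further gene lists are given by their counts. Of 43 cytokine, chemokine and receptor genes 19 were lower (median 0.08), 7 of them at an unadjusted p under 0.05 and 7 by the signal to noise statistic. In either direction 14 passed that p. Of these 43 genes 3 are among the 61. Ccl3, one of those, was the one called lower by limma, against 0.225% of all gene names. It lost the call with the replicate block (limma adjusted p = 0.11). Ccl2 and Cxcl2 are not on that list. Il7r, the receptor of a thymocyte survival cytokine, was called higher by 1.62 (limma adjusted p = 0.042). Of 25 NF-kappaB and interferon genes 18 were lower (median -0.13). Gbp2, one of the 61, was called lower, but not with the replicate block (limma adjusted p = 0.16). Nfkbia, the inhibitor of NF-kappaB, was called higher by 1.41 (limma adjusted p = 0.0065). The calls of Ccl3 and Gbp2 add nothing, since both were selected on the same difference. Of 22 feedback inhibitors 10 were lower and 3, Socs1, Rgs1 and Cblb, were called higher. Limma called 0.52% of all gene names higher. At an unadjusted p under 0.05 the feedback list had 3 genes lower and 10 in either direction, and 3 were lower by the signal to noise statistic. The NF-kappaB and interferon list had 5, 7 and 5 by the same counts, where 4.89%, 10.5% and 3.18% of all probes were so. The T cell receptor list (19 of 29 lower), the thymocyte transcription factors (16 of 25), the nucleotide and folate list (20 of 29), the amino acid list (9 of 23), the chaperones (11 of 24) and the adhesion and cytoskeleton list (20 of 27) had medians from -0.18 to 0.17 and no member called lower by limma. In that order they had 4, 6, 6, 0, 0 and 3 genes lower at an unadjusted p under 0.05 and 3, 6, 3, 0, 0 and 2 by the signal to noise statistic, against 4.89% and 3.18% of all probes. In either direction 5, 7, 10, 1, 1 and 8 passed that p, against 10.5%. In the adhesion list Itga4 and in the glycolysis list Pfkp were called higher. Of all the list genes called here outside the 61, those that kept an adjusted p under 0.05 in limma with the replicate block were Srebf1 (0.014) and Fasn (0.042).

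Some of the 61 genes were direct neighbors. Placed in the gene order of the RefSeq table, 60 genes could be located, and 10 of them lay in 5 pairs with no other protein-coding gene between them. Of the 124 genes higher in Dex that could be located, 11 lay in 6 such pairs. The pairs were Ccl3 with Ccl4, Gjb2 with Gjb6, Ssx2ip with Ctbs, Lipogenin with Lrrc4, and Bysl with Ccnd3. In rn3, the build of the array's positions, the probes of Gjb2 (chr15:36169367-36169426) and Gjb6 (chr15:36193468-36193527) were 24101 bases apart. Those of Ccl3 (chr10:71758981-71759040) and Ccl4 (chr10:71774637-71774696) were 15656 bases apart, those of Ssx2ip and Ctbs 20849, and those of Lipogenin and Lrrc4 75058. Gjb2 and Gjb6 are read from the same strand, as are Ssx2ip and Ctbs, while Lipogenin and Lrrc4, and Bysl and Ccnd3, lie on opposite strands. The array gives Bysl no position, and it places the Ccnd3 probe at chr8:77092615-77092669, although RefSeq has that gene beside Bysl on chromosome 9.

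The genes with a probe on either side of these pairs were not called by limma, which called 0.225% of all gene names lower and 0.52% higher. Gjb6, Ccl4, Ctbs and Lrrc4 of the pairs were not called either (limma adjusted p = 0.075, 0.11, 0.19 and 0.30). The call thus does not set the pairs apart from the genes beside them. Ccl5 and Ccl6, chemokine genes on the far side of Ccl3, differed by 0.29 and -0.28 (adjusted p = 0.67 and 0.87). Gja3, a connexin gene on the other side of Gjb2, differed by 0.01 (adjusted p = 1.00), and Cryl1, on the side of Gjb6, by -0.81 (adjusted p = 0.37). Snd1, beside Lipogenin, differed by -0.22 (adjusted p = 0.79), Gng5, near Ctbs, by -0.11 (adjusted p = 0.87) and Med20, beside Bysl, by -0.19 (adjusted p = 0.88). Spata1, next to Ctbs, differed by -0.72 (limma adjusted p = 0.72). Lpar3 and Mcoln2, on the side of Ssx2ip, differed by -0.54 and 0.51 (limma adjusted p = 0.59 and 0.33).

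**Figure D3:**
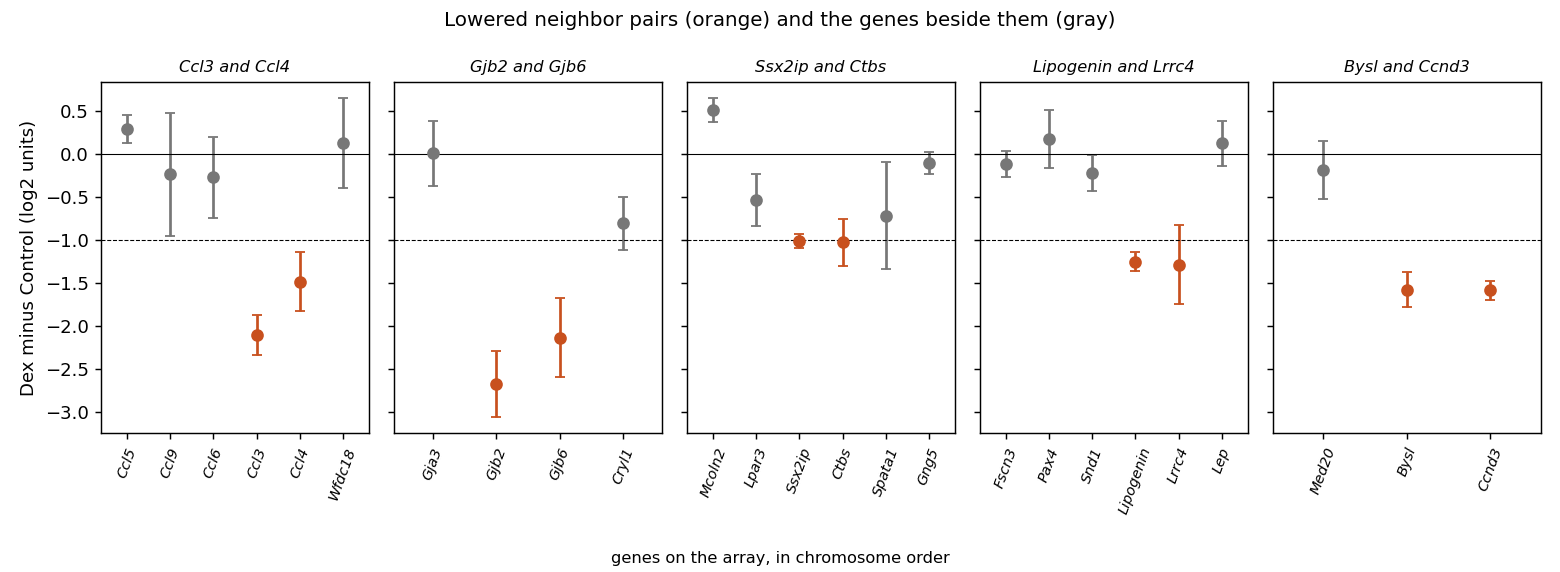
Dex minus Control in log2 units for the 5 pairs of lowered neighbors (orange) and for the genes with a probe beside them (gray), in chromosome order. Bars are the standard error of the difference of 4 against 4 arrays, and the dashed line marks -1, the limit used for selection.

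Promoter windows were found for 43 of the 61 genes in the RefSeq table, in 51 windows since some genes have several starts. The 18 genes without a window included Abcc3, Adora2a, Arc, Ccl2, Ccl3, Ccl4, Cdh1, Col2a1, Cyp1a1, Fn1, Gria3, Jun, Kcnh2, L1cam, Ntrk3 and RT1-N1. Both strands of the 250 bases before each start were searched. An AP-1 motif (TGANTCA) was present for 5 genes, or 11.6%, against 6.32% of the 7010 RefSeq genes of the array with a window and 6.34% of all 33469 windows. These were Duox2, Gbp2, Idi1, Mmp3 and Tnfrsf8. An NF-kappaB motif was present for 4 genes, or 9.30%, against 4.08% and 3.54%, namely Cnksr3, Cxcl2, Tacc2 and Tnfrsf8. Tnfrsf8 alone held both. The CRE (TGACGTCA) was present for 1 gene against 2.45% of array genes. The CCAAT box was present for 19 (44.2% against 36.7%), the E-box CACGTG for 4 (9.30% against 7.03%) and the cell cycle element TTTGAA for 8 (18.6% against 15.4%). The short glucocorticoid receptor element AGAACA was present for 6 of 43, against 14.7% of array genes. The palindromic glucocorticoid response element, with up to 2 mismatches allowed, was found for 0 of 43, against 1.14%. Since these are letters in short windows, a match is no evidence of binding and its lack in a window says nothing about the receptor.

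The array medians of the 61 genes, taken relative to each gene's Control mean, were -0.02, 0.10, -0.05 and -0.03 in Control 1 to 4 and -1.15, -1.20, -1.42 and -1.45 in Dex 1 to 4. For the genes higher in Dex the Dex medians were 1.69, 1.73, 1.07 and 1.39. The lowered genes were thus lowest on Dex 3 and 4, while the raised genes were highest on Dex 1 and 2. Across all RefSeq genes Dex 1 and 2 lay above Dex 3 and 4 by a median of 0.14, and in the 61 genes by 0.28. The genes were not uniform in this. In 9 genes Dex 1 and 2 averaged at least 1 above Dex 3 and 4, and these included Bcl2l2, Fgfbp1, Ifng, Ccl2, Ccl4 and Tnfrsf8. In 5 genes, Dll1, Ntrk3, Lrrc4, Mmp3 and Cyp1a1, they averaged at least 1 below. The median SD was 0.38 within Dex and 0.27 within Control, and 39 of the 61 genes varied more in Dex. In all 8905 RefSeq genes the medians were 0.43 and 0.25, and 6599 varied more in Dex. The no overlap condition and the background flag act on the spread of the 61 genes, so this is not a like comparison.

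**Figure D4:**
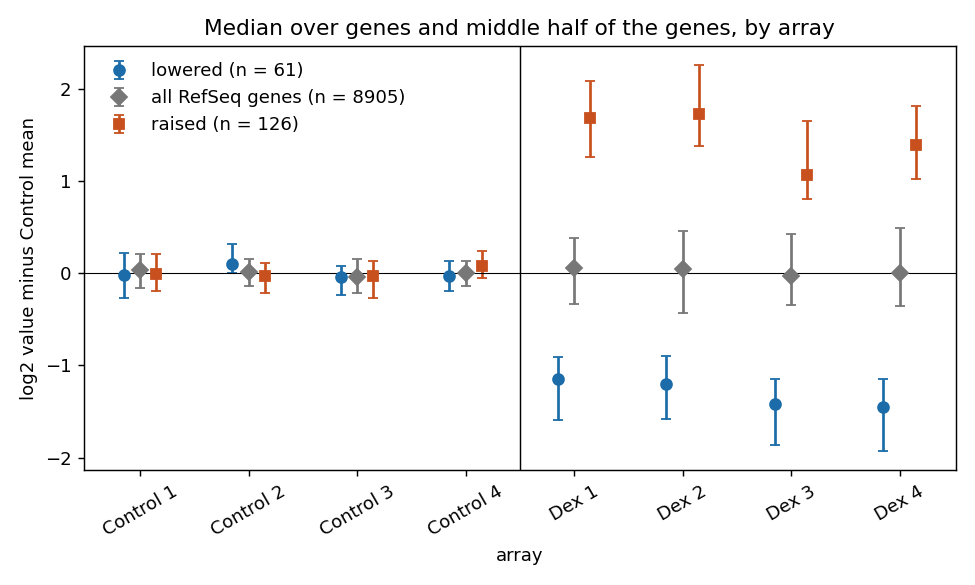
Median over genes of the log2 value minus the Control mean on each array, with bars for the middle 50% of genes, for the 61 lowered genes, the 126 raised genes and all 8905 RefSeq genes. The lowered genes run from -1.15 on Dex 1 to -1.45 on Dex 4 and the raised genes from 1.73 on Dex 2 to 1.07 on Dex 3.

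Differences within a slide or a replicate number have their sign fixed by the rule, since each Dex value had to lie below each Control value, so their sizes are given as a description. Dex 3 minus Control 1, the pair on the shared slide, had a median of -1.55 over the 61 genes and ranged from -2.84 (Tac1) to -0.24 (Adarb1), with 47 genes at or below -1. Between the other slides, which each held 1 group, the median was -1.35. Within replicate numbers 1 to 4 the medians were -1.14, -1.38, -1.28 and -1.41.

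For 15 of the genes the array holds other RefSeq probes besides the one that stood for the gene. Of 17 such probes 11 were lower in Dex, 8 had no overlap and 6 met the whole rule. These 6 belonged to Fn1 (-2.08), Phlda1 (-1.47), Abcc3 (-1.32), Lrrc4 (-1.33), Idi1 (-1.21) and Ssx2ip (-1.30). The second probe of Adora2a differed by -1.18 with overlapping groups and that of Tacc2 by -0.21. That of Cnksr3, the brighter of its probes over all arrays (9.16 in Control and 8.57 in Dex), differed by -0.59. The second probes of Scn4b, Ssh3, Pck1, Bcl2l2 and Col2a1 differed by 0.11, 0.52, 0.19, 0.27 and 0.05, so they did not share the direction. Those of Scn4b, Ssh3 and Col2a1 were not well above background on all Control arrays. Of 3 other Bcl2l1 probes, 2 differed by -0.59 and -0.75 and the third by 0.54. The remaining 46 genes rest on 1 RefSeq probe.

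The selection had a sharp limit. Just inside it lay Cxcl2 (-1.02), Orc6l (-1.01) and Ssx2ip (-1.01). Just outside lay Sfrs2 (-0.99), a splicing factor gene, Emp1 (-0.98), an epithelial membrane protein gene, and Cacnb2 (-0.98), a calcium channel subunit gene.

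The size of the difference in dim genes changed under another background correction with an added offset. Normexp here subtracts the local background, models the signal that is left and adds an offset of 50. The offset by itself shrinks log2 differences of dim probes, so its part and that of the model cannot be told apart. Under normexp all 61 genes were still lower but 26 were at or below -1. Of the 16 genes with a Control mean under 7, such as Ccl2, Fgf10, Dll1, Ifng and Mmp3, none was, and their median moved from -1.31 to -0.44. For the 45 brighter genes it moved from -1.19 to -1.03. In 6 of those, Cyp1a1, Tac1, Gria3, Abcc3, Hrh3 and Tacc2, the deposited difference was over 1.5 times that under normexp (Cyp1a1 -1.67 and Gria3 -1.12 under normexp). Cd200, Gjb2 and Fn1 stayed at -2.02, -2.38 and -2.06. Of the 61 genes 52 were well above background on all Dex arrays, 7 on some and 2 on none.

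**Figure D5:**
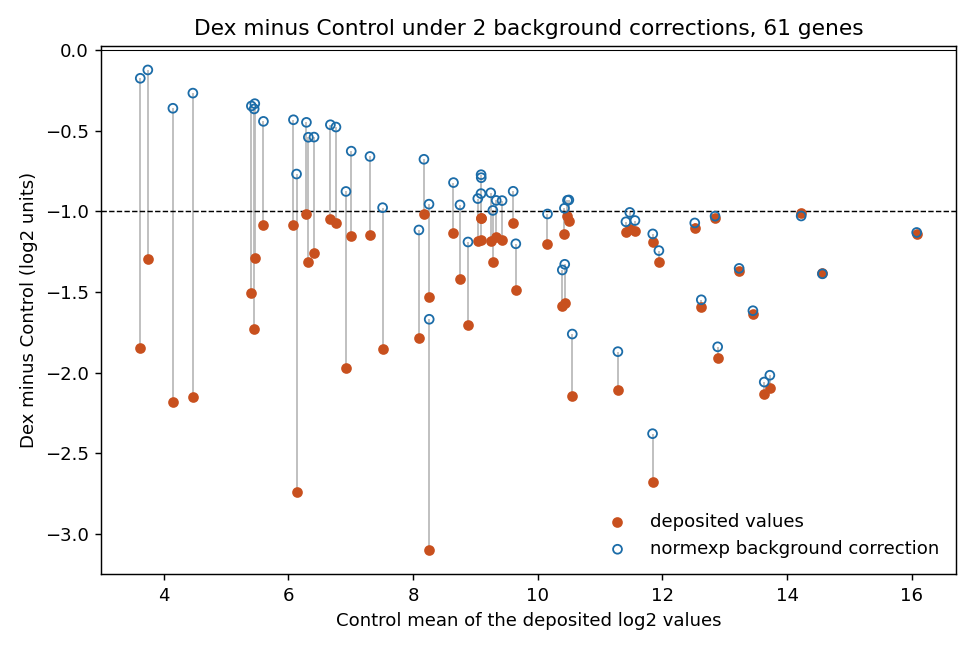
Dex minus Control for each of the 61 genes against its Control mean, from the deposited values (filled) and after normexp background correction (open), with a line joining the values of a gene. Under normexp the 16 genes with a Control mean under 7 all lie above -1, while 6 of the 45 brighter genes, Cyp1a1 and Tac1 among them, have deposited differences over 1.5 times those under normexp.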

How the data were processed

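Total RNA of 8 thymocyte cultures was hybridized by the authors to 1-color Agilent Whole Rat Genome arrays (design 014879), with probes of 60 bases, and spots were read with Feature Extraction (9.5.3.1, protocol GE1-v5_95_Feb07, per the file headers). The deposited processed intensity of each spot is background-subtracted and not normalized between arrays. The authors also deposited log2 values, quantile normalized and summarized per probe by median polish, which are the main values here. The number of arrays limits the precision. Probe positions are those of rn3 and promoter windows those of RefSeq in GRCr8.

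The genes and the gene lists were chosen with earlier results of these data known. Members needed a difference of 1.0, no overlap, and the background flag on all spots of the probe, of which 7 members have 10. Of the 61 accessions 60 were found in the RefSeq table, where 5 genes have a newer symbol. Names of list genes were matched as given, without the suffix of predicted genes, or through unambiguous synonyms, and the brightest probe stood for a list gene. List counts include genes that are among the 61, and those genes were selected for being lower. The text names the 12 largest differences, the 3 largest of each functional group, the 3 genes on either side of the limit, and genes of the 18 pathway lists that are members or were called by limma. Others were added after their values were seen. Of the 61 genes 2 are not reported here by name.

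limma (3.58.1, in R 4.3.3; lmFit and eBayes) was fitted over 41012 probes, two-sided, without a block, with Benjamini-Hochberg adjustment at 0.05, and was tested on simulated data. Tables were joined in Python (3.11.15) with pandas (2.3.3). Alternatives were recomputed quantile values, 75th percentile scaling, normexp, a filter on dim probes, blocks for replicate number or slide, the methods' signal to noise statistic, other forms of the rule, and leaving out each array. Deviations from the group means correlated between arrays of the same number at 0.39, 0.13, 0.55 and 0.18, each over 0.1, so a fit with the number as a block was also made. Its effect on the calls is stated, with values for some genes. The calls reported come from the fit without the block. Control 1 also reached 0.39 against Dex 2. For Control 2 the value against Dex 1 (0.19) exceeded that of its own number, and Control 3 gave 0.39 against Dex 4, so the data do not single out the pairs.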

Additional observations from a re-analysis of the deposited data

Results flagged for a closer look

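Among 122 groups of 4 arrays (61 genes in Control and in Dex), 3 held a value that stood apart from the other 3 of its group, by Dixon's ratio of the gap to the range at its 95% critical value. Chance gives about 1 such group in 20. Syt6 read 9.56 on Control 1 against 10.31 to 10.43 on the other Control arrays (ratio 0.858). Cdh1 read 8.73 on Control 1 against 9.12 to 9.18 (ratio 0.877). Kcnh2 read 9.43 on Dex 3 against 9.22 to 9.26 (ratio 0.839). Each of the 3 values lay on the side of the other treatment group, and all 3 were on the slide that held Control 1 and Dex 3. Whether the slide or its scan has a part in this was not tested.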

How the results depend on the processing

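Limma called 87 probes lower. The number was 33 with 75th percentile scaling, 421 with normexp, 172 with dim probes left out, 6 with the replicate block, 2 with slide as a fixed block, 706 with slide as a random block and 1305 by the signal to noise statistic, and 13 (without Control 4) to 47 (without Dex 3) with 1 array left out. The 61 genes of the rule became 26 with normexp, all among the 61, and 95 where a lower Dex value within each replicate number (the pairing) took the place of no overlap. They were 60 to 83 genes with 1 array left out, of which 50 to 60 were shared with the 61, and 57 with 75th percentile scaling, of which 49 were shared. With the brightest RefSeq probe of each gene taken first 59 genes met the rule, without Bcl2l2 and Cnksr3. Where every RefSeq probe of a gene had to meet the conditions, 52 did. The median of -1.29 became -0.96 with normexp and -1.55 on the shared slide, and lay between -1.32 and -1.22 with 1 array left out. With the replicate block it was -1.26. Normexp moved 19 of the single genes and the slide block 23 by more than the replicate SD. No sign was reversed, but the slide block is Dex 3 minus Control 1, whose sign the rule fixes, so this says nothing about stability. The random slide fit had a negative correlation within slides. The causes were not tested. Intensity near background limits the dim genes, and 9 of the 61 were not well above background on every Dex array.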
